A study of Homo sapiens with 3 samples.

Results

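The genes described here are 10 targets of NF-κB, the transcription factor family of the inflammatory response. They comprise 5 secreted chemokines (CXCL1, CXCL2, CXCL3, CXCL8 and CCL20), the inhibitors NFKBIA and TNFAIP3, the survival factor BIRC3, the adhesion molecule ICAM1 and the NF-κB subunit RELB. They were chosen by symbol, and all 10 of 10 are among the 33538 genes of the count tables. Transcripts were counted in single cells of 3 co-cultures of the human colorectal cancer lines Caco-2, which forms a polarised absorptive layer, and HT29, which can form mucus cells. Each co-culture was seeded at 9 parts Caco-2 (passage 8) to 1 part HT29 (passage 13) on its own Transwell insert and harvested on day 23. Control 1 and control 2 were untreated, and LPS 1 received 1 ng/ml Escherichia coli lipopolysaccharide (LPS) in the apical chamber from day 22 for 24 hours. The model holds no immune cells, and the controls are replicate inserts of the same pair of lines. The p-values below rest on the spread between inserts of the controls, and no spread between LPS inserts is measured. Except where lines were compared within libraries, the tests leave out that both lines of a library share 1 insert.

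In the resting cell, NF-κB dimers are held in the cytoplasm by inhibitors of the IκB family, of which NFKBIA encodes IκBα. Signals from Toll-like receptors, interleukin-1 receptors or tumour necrosis factor receptors activate the IKK kinases, IκBα is degraded, and the dimers enter the nucleus and bind κB sites in promoters. The targets include chemokines that call neutrophils (CXCL1, CXCL2, CXCL3, CXCL8) and lymphocytes and dendritic cells (CCL20) to the epithelium, and also the brakes of the pathway itself (NFKBIA, TNFAIP3).

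The promoter windows below are shown because κB sites are where NF-κB binds. Promoters of 9 of the 10 genes, all except RELB, were matched by symbol in RefSeq on GRCh38.p14. In the 250 bases before the transcription start, both strands were searched for GGAATTTCC and for a 10-letter κB consensus. The consensus was GGGRNNYYCC, with R for A or G, Y for C or T and N for any base. The motifs overlap each other in some promoters. Each window runs from 15 bases before the first match to 15 bases after the last, on the strand of the gene from 5′ to 3′, with the matched letters in capitals.
CXCL1 (chr4:73869299-73869339, plus strand): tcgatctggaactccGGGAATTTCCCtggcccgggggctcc
CXCL2 (chr4:74099248-74099288, minus strand): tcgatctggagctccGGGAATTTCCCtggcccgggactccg
CXCL3 (chr4:74038743-74038783, minus strand): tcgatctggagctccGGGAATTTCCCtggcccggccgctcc
CXCL8 (chr4:73740463-73740501, plus strand): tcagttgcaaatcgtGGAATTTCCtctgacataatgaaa
CCL20 (chr2:227813748-227813787, plus strand): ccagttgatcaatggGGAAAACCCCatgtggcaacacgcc
NFKBIA (chr14:35404806-35404845, minus strand): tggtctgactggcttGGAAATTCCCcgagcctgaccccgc
TNFAIP3 (chr6:137867177-137867228, plus strand): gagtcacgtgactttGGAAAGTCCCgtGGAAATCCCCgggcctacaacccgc
BIRC3 (chr11:102317270-102317373, plus strand): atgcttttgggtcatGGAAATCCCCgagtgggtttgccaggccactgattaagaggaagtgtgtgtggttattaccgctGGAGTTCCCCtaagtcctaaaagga
ICAM1 (chr19:10270919-10270957, plus strand): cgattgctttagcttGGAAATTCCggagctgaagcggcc

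One or the other motif was found in 9 of the 9 promoters and in 10.1% of the 35116 promoters of the same length in the table. The 10-letter consensus was in 7 of the 9 and in 9.96% of all promoters, and GGAATTTCC was in 6 of the 9 and in 0.413% of all. The neutrophil chemokines CXCL1, CXCL2 and CXCL3 carry the same capital letters at the same distance from the start within 1 base, and the site of CCL20 lies at that distance too. A match in letters is a description and not a measured binding site. The genes were chosen as NF-κB targets, so these shares are no test. CXCL1, CXCL2, CXCL3 and CXCL8 lie on chromosome 4, CCL20 on chromosome 2, TNFAIP3 on chromosome 6, BIRC3 on chromosome 11, NFKBIA on chromosome 14, and ICAM1 and RELB on chromosome 19. The assay reads the 3′ ends of transcripts, where CXCL1 and CXCL2 share 46 of 451 words of 50 bases (10.2%), so reads in that stretch do not tell these paralogs apart. TNFAIP3 overlaps WAKMAR2, and ICAM1 overlaps LIMASI and ICAM4-AS1, on the opposite strand. Whether counting used the strand is not given in the sources used here.

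Each cell was assigned to a line from genes that differ between monocultures of Caco-2 and HT29, with the genes described here left out. Control 1 held 3939 Caco-2-line and 650 HT29-line cells, control 2 held 3889 and 976, and LPS 1 held 3913 and 847. The UMIs (unique molecular identifiers, 1 per captured RNA molecule) of a line were summed per library and are given as CPM (counts scaled to a common total of the sum), with an exact Poisson interval that covers counting error only. The sums held 16494446 to 25528820 UMIs for Caco-2-line cells and 3441480 to 4119177 for HT29-line cells, so the values in HT29-line cells carry the wider intervals. The median depth of the kept cells was 5452 UMIs in control 1, 4101 in control 2 and 3573 in LPS 1. So shares of cells are given after thinning each cell to 2000 UMIs, unless called unthinned. Cells with fewer UMIs were left out of the thinned shares. These were 0 cells in control 1, 156 Caco-2-line and 85 HT29-line cells in control 2, and 327 and 122 in LPS 1. The HT29 genes TCN1, CD44, LYZ and KLK10 and the Caco-2 genes APOA1, APOB and AFP were high in their own line. These marker genes were named by the study on the same control libraries. They were not kept out of the line assignment either, so they are no independent check of the lines. Over 7 marker genes each, the level in the other line was a median of 1.79% of that in HT29-line cells and 5.27% of that in Caco-2-line cells. AGR2, at 98.4%, 95.04% and 87.4% in control 1, control 2 and LPS 1, was the HT29 gene that told the lines apart least. For clusters 9 and 11, the line taken from the whole cluster differed from the line of most of their cells. Cluster 9, of 306 cells, had all 7 HT29 and 2 of the 7 Caco-2 marker genes raised, at a median depth of 6919 UMIs. Of its cells, 248 are in the Caco-2-line sums. Cluster 11, of 181 cells, has the enteroendocrine genes INSM1 and PAX4 among its leading genes and had none of these marker genes raised. Of its cells, 155 are in the Caco-2-line sums. With lines taken from clusters both counted as HT29, and 8 of the 10 genes again passed between the lines.

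The first comparison asked which of the genes each line transcribed in untreated co-culture. HT29-line cells were higher in CXCL8, CXCL1, BIRC3, RELB and NFKBIA, and Caco-2-line cells were higher in CXCL2, CCL20 and TNFAIP3. Of the 10 genes, 8 passed an adjusted p of 0.05 in the quasi-likelihood test of edgeR on the summed counts, 5 higher and 3 lower in HT29. Of all 15114 genes tested, 60.2% passed, so passing alone is not particular to these genes. Their log2 fold changes had a median of 0.39, beside -0.08 for all genes.

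**Figure D1:**
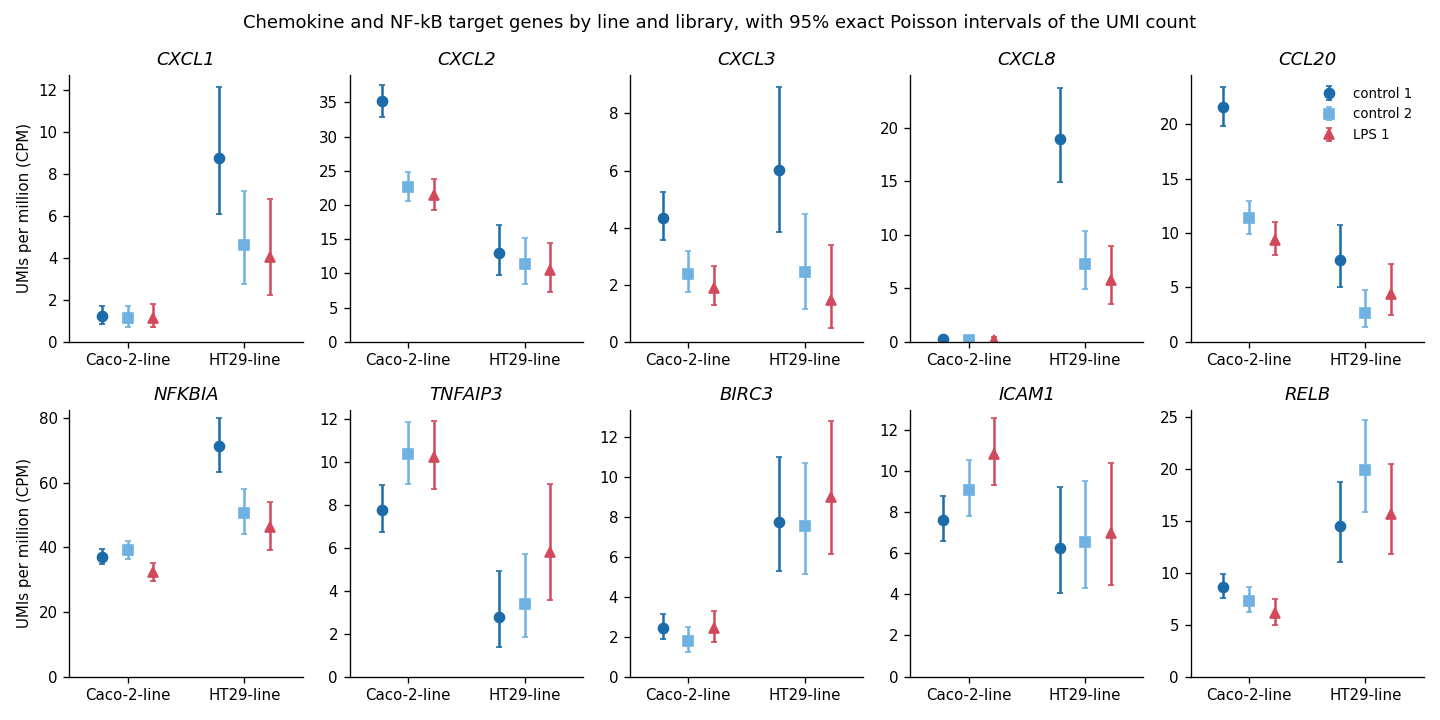
CPM of each gene in Caco-2-line and HT29-line cells of control 1 (circles), control 2 (squares) and LPS 1 (triangles), with 95% exact Poisson intervals of the count and an axis of its own for each gene. CXCL8 lies between 5.81 and 19.01 CPM in HT29-line cells and at 0.274 CPM or less in Caco-2-line cells, while CXCL2 and TNFAIP3 are higher in Caco-2-line cells in each library.

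CXCL8, which encodes interleukin-8, separated the lines most. In HT29-line cells it was at 19.01 CPM in control 1 (76 UMIs), 7.28 in control 2 (30 UMIs) and 5.81 in LPS 1 (20 UMIs). In Caco-2-line cells it was at 0.274, 0.203 and 0.121 CPM, from 7, 4 and 2 UMIs in sums that are several times larger. The groups, LPS 1 included, did not overlap, and the log2 fold change in the controls was 5.60 ± 0.52 (SE, adjusted p = 2.65e-07). The share of all genes without such overlap is not given, so here and below it is not read as particular to these genes. The Caco-2-line level was 1.44%, 2.79% and 2.09% of the HT29-line level, which is as low as that of the HT29 marker genes in Caco-2-line cells, and it was not read as expression in Caco-2.

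CXCL1, a ligand of the same neutrophil receptor CXCR2, was also higher in HT29-line cells. It was at 8.75, 4.61 and 4.07 CPM in control 1, control 2 and LPS 1, against 1.21, 1.12 and 1.15 CPM in Caco-2-line cells. Every HT29-line value was above every Caco-2-line value, and the log2 fold change was 2.40 ± 0.39 (adjusted p = 7.07e-05). The neighbouring paralog CXCL2 went the other way. It was at 35.1, 22.6 and 21.4 CPM in Caco-2-line cells (897, 445 and 353 UMIs) and at 13.0, 11.4 and 10.5 CPM in HT29-line cells, again without overlap. Its log2 fold change was -1.35 ± 0.24 (adjusted p = 2.16e-04). CXCL3, the third paralog, did not separate the lines, with 4.35, 2.39 and 1.88 CPM in Caco-2-line cells and 6.003, 2.43 and 1.45 CPM in HT29-line cells (log2 fold change 0.20 ± 0.44, adjusted p = 0.716). So CXCL1 and CXCL2, with the same κB letters, differed in direction between the lines.

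CCL20, the ligand of CCR6 and the only CC chemokine of the set, was at 21.6, 11.4 and 9.40 CPM in Caco-2-line cells and at 7.504, 2.67 and 4.36 CPM in HT29-line cells. The lowest Caco-2-line value was above the highest HT29-line value. The log2 fold change was -1.82 ± 0.58 (adjusted p = 0.041), and when no doublets were removed it was -1.53 ± 0.65 and the call was lost (adjusted p = 0.113).

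Among the regulators, NFKBIA was at 71.3, 50.7 and 46.2 CPM in HT29-line cells and at 37.0, 39.1 and 32.4 CPM in Caco-2-line cells (log2 fold change 0.59 ± 0.16, adjusted p = 0.0060). TNFAIP3, which encodes the ubiquitin-editing enzyme A20 that shuts the pathway down, was the opposite. It was at 7.76, 10.4 and 10.2 CPM in Caco-2-line cells and at 2.75, 3.40 and 5.81 CPM in HT29-line cells (-1.64 ± 0.29, adjusted p = 1.59e-04). So the 2 feedback inhibitors of the set were high in different lines. RELB, the subunit of the alternative NF-κB pathway, was at 14.5, 19.9 and 15.7 CPM in HT29-line cells against 8.62, 7.31 and 6.12 CPM (1.01 ± 0.21, adjusted p = 5.46e-04).

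BIRC3, which encodes the ubiquitin ligase cIAP2 of the tumour necrosis factor receptor complex, was higher in HT29 as well. It was at 7.75, 7.53 and 9.01 CPM in HT29-line cells and at 2.43, 1.78 and 2.43 CPM in Caco-2-line cells (1.74 ± 0.31, adjusted p = 1.60e-04). ICAM1, the ligand by which leukocytes adhere, was at 7.64, 9.09 and 10.9 CPM in Caco-2-line cells and at 6.25, 6.55 and 6.97 CPM in HT29-line cells. Its groups did not overlap either, but the difference missed the threshold (-0.48 ± 0.23, adjusted p = 0.090). It passed when the lines were compared within all 3 libraries (adjusted p = 0.00961), a fit chosen after seeing the data in which 71.4% of all genes passed.

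**Figure D2:**
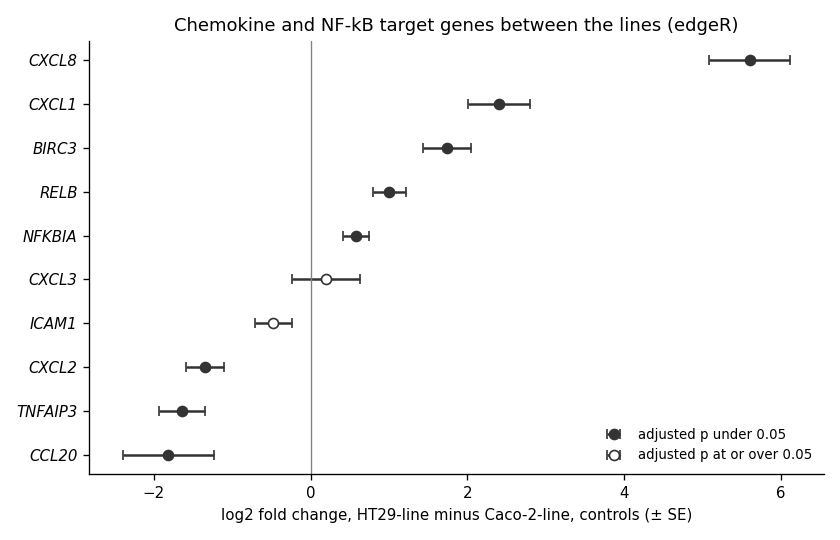
Log2 fold change between HT29-line and Caco-2-line cells of the 2 controls for each gene, with its standard error; filled points passed an adjusted p of 0.05. The values run from -1.82 for CCL20 to 5.60 for CXCL8, and CXCL3 and ICAM1 are the open points.

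The transcripts were rare per cell. After thinning to 2000 UMIs, 20.2%, 17.4% and 16.7% of Caco-2-line cells of control 1, control 2 and LPS 1 held a UMI of any of the 10 genes, and 21.2%, 18.4% and 18.1% of HT29-line cells did. NFKBIA was found in 7.41%, 7.18% and 6.39% of thinned Caco-2-line cells and in 12.6%, 9.88% and 8.55% of thinned HT29-line cells. CXCL2 was found in 6.45%, 4.37% and 3.63% of thinned Caco-2-line cells. CXCL8 was found in 2.00%, 1.23% and 1.24% of thinned HT29-line cells and in 0.0508%, 0.0536% and 0% of thinned Caco-2-line cells. Of the unthinned Caco-2-line cells of control 1, the deepest library, 15.5% held a CXCL2 UMI and 18.9% an NFKBIA UMI.

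Part of the chemokine UMIs lay in few cells, most so in control 1, the deepest library. In Caco-2-line cells, cells with 3 or more UMIs of CCL20 numbered 41, 13 and 7 in control 1, control 2 and LPS 1 and held 44.6%, 41.1% and 29.03% of its UMIs, and 1 cell of control 1 held 61 of the 551. Such cells held 26.3%, 12.8% and 13.9% of CXCL2 UMIs and 12.8%, 8.31% and 5.62% of NFKBIA UMIs. For TNFAIP3 they held 3.54%, 4.90% and 7.10%, and for ICAM1 1.54%, 0% and 0%. In HT29-line cells of control 1, 5 cells held 64.5% of the CXCL8 UMIs, and 1 of them held 29 of the 76. In control 2 and LPS 1, 1 cell each had 3 or more, with 10% and 30% of the CXCL8 UMIs. Without the cell with 29 UMIs the CXCL8 level of control 1 was 11.8 CPM in place of 19.01. Without the richest cell of each library, CCL20 in Caco-2-line cells was at 19.2, 10.2 and 8.00 CPM in control 1, control 2 and LPS 1, so control 1 stayed the highest.

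Some of the cells richest in a chemokine held other NF-κB targets, and others held none. The richest CCL20 cell of control 2 (23 UMIs) and the richest CXCL2 cells of control 1 (9 UMIs) and LPS 1 (5 UMIs) held no UMI of the other genes. Among HT29-line cells, 7 had 3 or more CXCL8 UMIs, 5 from control 1, 1 from control 2 and 1 from LPS 1, and all 7 lay in cluster 2. Together they held 24 CXCL1 UMIs, 25 NFKBIA UMIs, 16 CCL20 UMIs and 8 BIRC3 UMIs. That is 558 CPM of CXCL1 (interval 357 to 830) against 3.82 CPM in the other 2466 HT29-line cells, 581 against 54.5 CPM of NFKBIA, 372 against 3.47 CPM of CCL20 and 186 against 7.38 CPM of BIRC3. Most of this came from 2 cells of control 1. One of them held 11 CXCL1, 7 CXCL8, 5 CXCL2, 5 CXCL3, 5 BIRC3, 4 NFKBIA, 3 CCL20 and 2 ICAM1 UMIs among 5386, close to the median depth of its line in that library (5349). The other held 13 CCL20, 9 NFKBIA, 8 CXCL1, 7 CXCL8, 3 BIRC3, 2 CXCL2 and 2 CXCL3 UMIs among 10049. The cell with 29 CXCL8 UMIs held 7 of NFKBIA and none of the other chemokines. One cell of control 1, with 3 CXCL8 UMIs, held no UMI of the other genes. None of the 7 cells held a TNFAIP3 or RELB UMI. At their depth a count of 0 allows up to 85.7 CPM, above the 3.91 and 16.8 CPM of the other HT29-line cells. So a lower level of these genes was not shown.

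**Figure D3:**
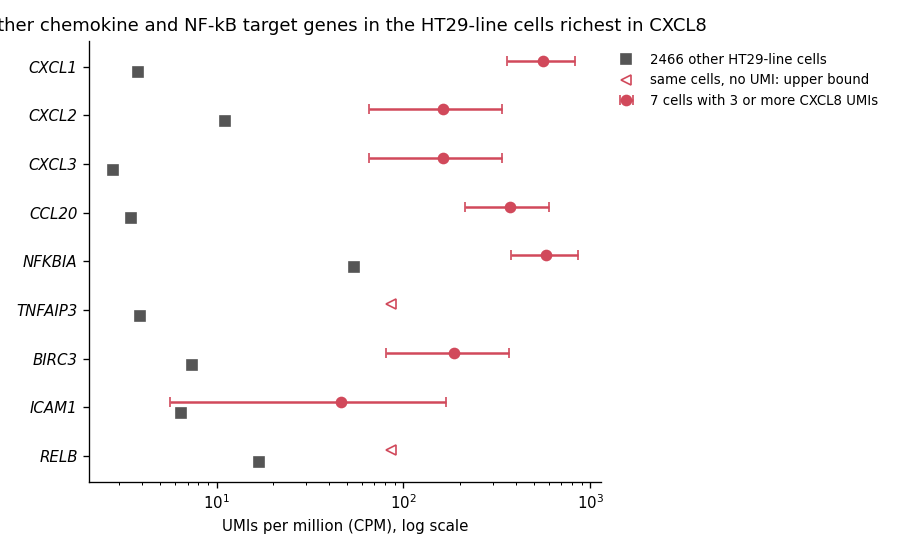
CPM on a log axis of the other 9 genes in the 7 HT29-line cells with 3 or more CXCL8 UMIs (red circles with 95% exact Poisson intervals, or open triangles at the upper bound where no UMI was found) and in the 2466 other HT29-line cells (grey squares). CXCL1 is at 558 against 3.82 CPM and NFKBIA at 581 against 54.5 CPM; the cells were chosen by CXCL8, so this is a description.

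In Caco-2-line cells, 61 cells had 3 or more CCL20 UMIs, 32 of them in cluster 1 and 13 in cluster 3. Control 1 gave 41 of them, and their median depth was 6312 UMIs against 4384 in the other 11680 cells. In control 1, all cells of clusters 1 and 3 held CXCL2 at 39.9 and 49.7 CPM, so the other cells are not a matched reference. The part of library, cluster and depth in the levels below was not tested. The 61 cells held NFKBIA at 85.8 CPM (interval 61.0 to 117) against 36.1 CPM in the other cells, and CXCL2 at 61.6 (40.9 to 89.0) against 27.2. BIRC3 was at 17.6 (7.60 to 34.7) against 2.11 and RELB at 17.6 (7.60 to 34.7) against 7.46. The cell of control 1 with 61 CCL20 UMIs held 14 of their 39 NFKBIA UMIs and 2 of their 8 BIRC3 UMIs, but no CXCL2 UMI. So the NFKBIA level of these cells rests in good part on 1 cell. ICAM1, at 6.60 (1.36 to 19.3) against 8.98 CPM, and TNFAIP3, at 15.4 (6.19 to 31.7) against 9.21 CPM, had intervals that held the level of the other cells. Of the 91 Caco-2-line cells with 3 or more CXCL2 UMIs, 60 were from control 1, and their median depth was 6857 UMIs against 4374 in the others. These 91 cells held CCL20 at 29.1 CPM (18.2 to 44.04) against 14.9 and NFKBIA at 56.8 (41.1 to 76.6) against 36.2. BIRC3 was at 1.32 (0.0335 to 7.37) against 2.23 CPM. In thinned cells few cells held both of a pair. CCL20 was found in 3.94% of the CXCL2-positive Caco-2-line cells of control 1 (interval 1.90 to 7.12) and in 2.69% of the others, in 3.07% and 1.37% in control 2, and in 2.31% and 1.505% in LPS 1, and in each library the interval of the CXCL2-positive cells held the value of the others. NFKBIA was found in 11.02% of the CXCL2-positive Caco-2-line cells of control 1 (7.45 to 15.5), above the 7.16% of the others, but in 6.75% against 7.20% in control 2 and in 6.92% against 6.37% in LPS 1. In HT29-line cells of control 1, 4 of the 13 CXCL8-positive cells held CXCL1 (30.8%, 9.09 to 61.4, against 0.785% of the others) and 5 held NFKBIA (38.5%, 13.9 to 68.4, against 12.1%). In control 2, 1 of 11 such cells held CXCL1 and 3 held NFKBIA, and in LPS 1, 1 of 9 held each, with intervals that held the value of the others.

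Clusters came from genes other than these 10, and their levels over clusters are a description. Cluster levels given with ± are the mean and SD over the 3 libraries, LPS 1 included. Of the 15 clusters, 10 had at least 50 cells in each library. CCL20 was highest in cluster 1, whose leading genes include S100A9, TFF1 and TFF2, at 49.7, 30.7 and 15.5 CPM in control 1, control 2 and LPS 1. Clusters 7, 6 and 3 followed by their mean over libraries. They were at 22.8, 26.2 and 27.8 CPM in control 1, at 29.2, 18.95 and 7.13 CPM in control 2 and at 5.60, 8.65 and 6.85 CPM in LPS 1. Cluster 1 was above each of them in each library, by little over cluster 7 in control 2, while the order among these 3 changed with the library. In LPS 1, clusters 8 and 0 were above these 3, at 10.6 and 9.16 CPM. CXCL2 was highest in cluster 3, at 49.7, 39.0 and 32.7 CPM. This cluster was enterocyte-like by its markers, with APOA4 and CUBN among its leading genes. The next cluster, cluster 1, was at 27.5 ± 10.9 CPM, and the other Caco-2 clusters lay between 20.1 and 25.01 CPM.

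ICAM1, TNFAIP3 and BIRC3 had their highest mean levels in cluster 7, a Caco-2 cluster of 562 cells led by SLC2A3, SLC26A2 and ITGA5. ICAM1 was at 22.8, 24.1 and 21.0 CPM there, against 13.1 ± 5.50 CPM in cluster 3 and 10.2 ± 3.15 CPM in cluster 5, and its lowest value in cluster 7 was above the highest in any other of the 10 clusters. The clusters were redrawn from log-normalised values centred per library, and the highest ICAM1 level was then 14.7 CPM, in a cluster of 2553 cells. TNFAIP3 was then highest in that same cluster, at 11.8 CPM. BIRC3 was then highest at 8.29 CPM in a cluster of 2314 cells, of which 95.5% were HT29-line, so its place in a Caco-2 cluster depends on the clustering. BIRC3 was at 4.56, 12.03 and 12.6 CPM in cluster 7, from 20 UMIs in all, and at 7.80, 6.99 and 9.14 CPM in the HT29 cluster 2, which was the higher in control 1. TNFAIP3 was at 11.4, 24.1 and 15.4 CPM in cluster 7 and at 10.4, 11.3 and 16.3 CPM in cluster 4, which was the higher in LPS 1. Cells of cluster 7 had a median of 3138 UMIs and a mitochondrial share of 4.99%, and the part of either in these levels was not tested.

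HT29-line cells formed 2 main clusters, whose levels of some of these genes lay apart in control 1. Cluster 2, with LYZ and KRT20 among its leading genes, held 2219 HT29-line cells and had the highest levels of CXCL8 (19.1, 6.99 and 5.90 CPM), CXCL1 (5.88 ± 2.79), NFKBIA (57.9 ± 13.8) and RELB (17.2 ± 3.04). Cluster 10, with 197 HT29-line cells and the mucin genes MUC2 and MUC5AC among its leading genes beside the hormone genes SST and GCG, was at 27.4 ± 2.82 CPM of NFKBIA and at 1.10 ± 1.91 CPM of CXCL2. No CXCL1 UMI was found there, and CXCL8 had 2. For CXCL1, the upper bounds in cluster 10 (11.2, 12.2 and 13.0 CPM) were above cluster 2 (9.06, 4.75 and 3.83 CPM) in each library. For CXCL8 they were above it in control 2 and LPS 1 (18.4 and 19.7 CPM). The same held there for NFKBIA (56.4 and 55.7 against 51.7 and 48.4 CPM) and CXCL2 (18.4 and 13.0 against 12.5 and 11.2 CPM). So a lower level of these genes was not shown there. In clusters 2 and 10, CCL20 was at 5.21 ± 2.25 and 4.38 ± 3.82 CPM, and TNFAIP3 at 3.89 ± 1.78 and 4.55 ± 5.46 CPM. Cluster 10 held 4 UMIs of each, so neither a difference nor a like level was shown. The 25 NFKBIA UMIs in all show how little depth cluster 10 holds.

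**Figure D4:**
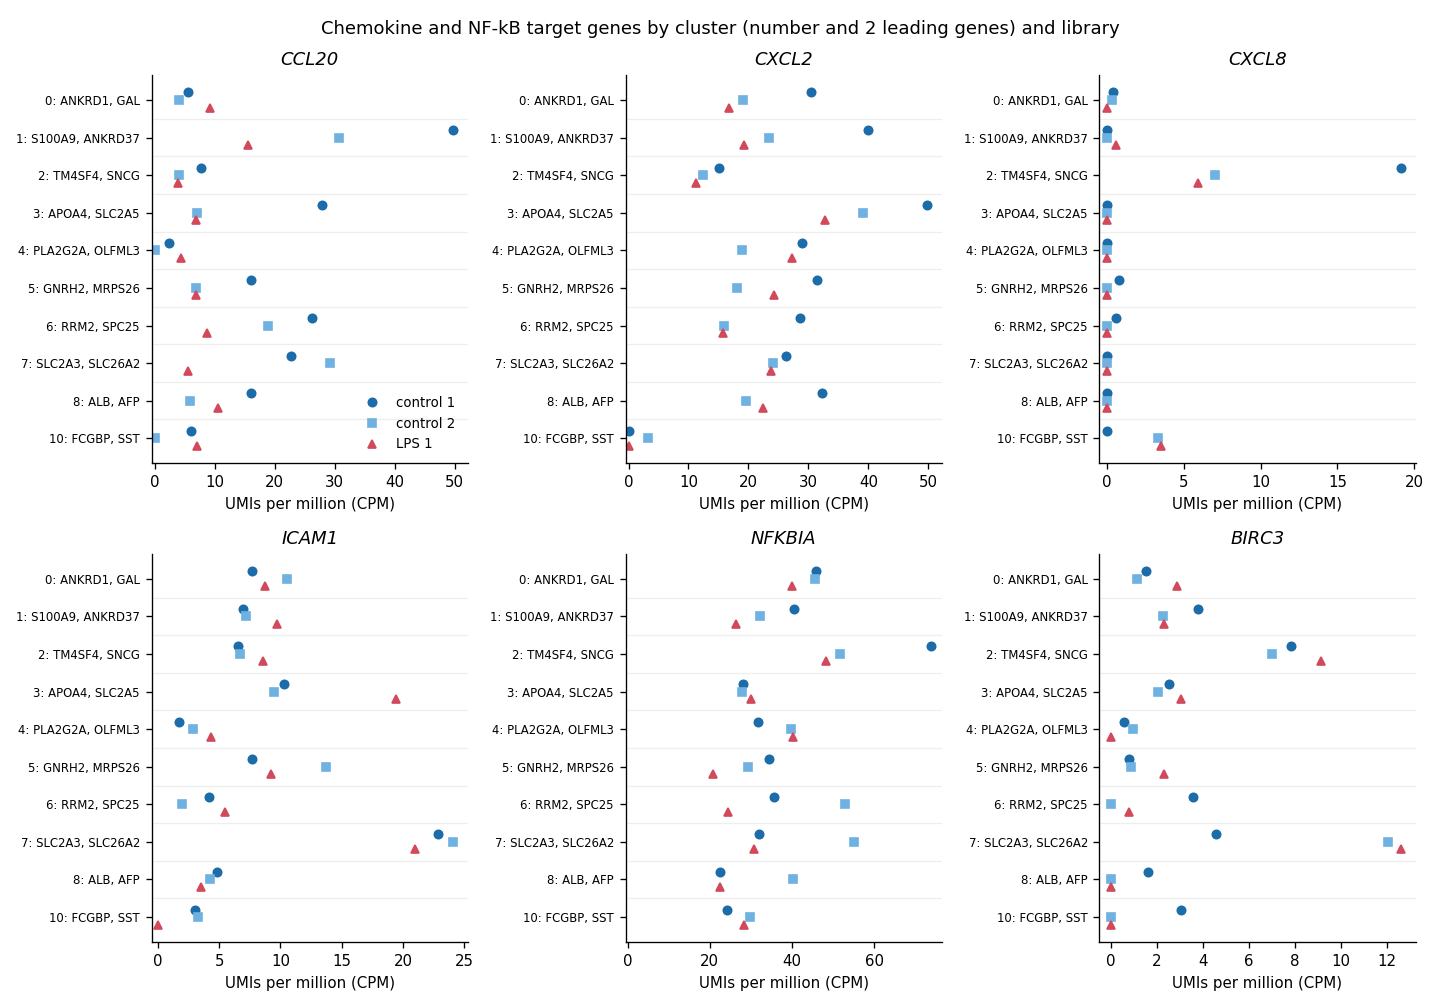
CPM of 6 of the genes in the 10 clusters with at least 50 cells in each library, for control 1 (circles), control 2 (squares) and LPS 1 (triangles); each row names the cluster and 2 of its leading genes. CCL20 is highest in cluster 1, CXCL2 in cluster 3, ICAM1 in cluster 7 and CXCL8 in cluster 2.

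The genes most alike in pattern were sought over 34 sums of a cluster and a library, by Pearson correlation of log2(CPM + 10), among genes at a mean of 10 CPM or more. The sums share libraries, depth and line, so the values are given with no p. CXCL8 was most like LRP8, KRT17 and LCN2 (r = 0.90 each), and CXCL1 most like ANXA3 (0.80), C16orf74 (0.80) and IGFL2-AS1 (0.80). NFKBIA (0.71) and RELB (0.80) were both most like TNFRSF12A, the receptor of TWEAK, and then ANXA3 (0.70 and 0.80). CFD (0.68) came next for NFKBIA and CD55 (0.77) for RELB. CXCL2 was most like FBXO2 (0.86), DGAT2 (0.86), which makes triglycerides, and SCCPDH (0.84). CCL20 was most like S100A9 (0.77), which encodes a calprotectin subunit, then RNF126 (0.70) and CKB (0.68). ICAM1 followed PRSS8 (0.87), RBMS2 (0.85) and ARHGAP45 (0.85), TNFAIP3 followed BLOC1S5 (0.82), TYW5 (0.79) and MGA (0.78), and BIRC3 followed USP54 (0.83), MAGI3 (0.83) and EPS8 (0.82). CXCL3 had no close match, with IDH3A (0.61), IFRD2 (0.54) and HES4 (0.54).

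The second comparison asked what 24 hours of LPS did to these genes, with the single LPS library assumed to vary as the controls do. None of the 10 passed the threshold in edgeR in either line. In Caco-2-line cells 0 of the 15114 genes passed (0%) and 1 passed in DESeq2; 3.49% of them, and 1 of the 10, had an unadjusted p under 0.05. In HT29-line cells 8 genes passed (0.0529%), all higher, and 11 in DESeq2 (0.0728%), and 3.78% of the genes and 1 of the 10 had an unadjusted p under 0.05. Those with an unadjusted p under 0.05 were CXCL2 in Caco-2-line cells (log2 fold change -0.52 ± 0.24, adjusted p = 0.992) and CXCL8 in HT29-line cells (-1.23 ± 0.55, adjusted p = 1), both lower with LPS. For the 10 genes the median was -0.39 in Caco-2-line cells and -0.27 in HT29-line cells, beside 0.00 over all genes in both.

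The place of the LPS library beside the controls was mixed. In Caco-2-line cells the LPS value was below both controls for 6 genes (25% of all genes), between them for 3 (26.5%) and above both for ICAM1 alone (48.5%). In HT29-line cells it was below both for 5 genes (24.4% of all genes), between for CCL20 and RELB (37.2%), and above both for TNFAIP3, BIRC3 and ICAM1 (38.4%). CXCL2, CXCL3, CXCL8 and NFKBIA were below both controls in both lines. ICAM1 was above both in both lines, with log2 fold changes of 0.30 ± 0.21 (adjusted p = 0.992) and 0.07 ± 0.36 (adjusted p = 1). TNFAIP3 in HT29-line cells was at 0.86 ± 0.45 (adjusted p = 1), from 11, 14 and 20 UMIs.

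**Figure D5:**
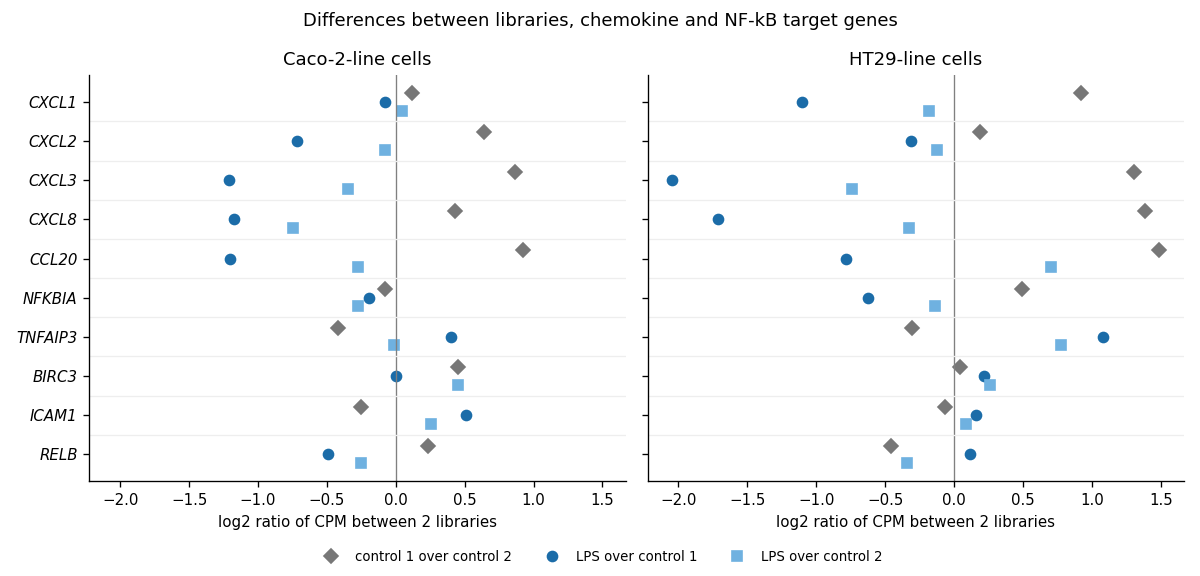
Log2 ratios of CPM between pairs of libraries for each gene in Caco-2-line cells (left) and HT29-line cells (right): control 1 over control 2 (grey diamonds), LPS 1 over control 1 (dark circles) and LPS 1 over control 2 (light squares). For CCL20, CXCL3 and CXCL8 the controls differ by more than LPS 1 differs from control 2 in HT29-line cells, at 1.49, 1.31 and 1.38 for the controls.

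The 2 controls differed in the chemokines, so the LPS result rests on which control is used. Control 1 was above control 2 for 7 of the 10 in Caco-2-line cells (43% of all genes) and for 7 in HT29-line cells (47%). In Caco-2-line cells control 1 was 1.56-fold above control 2 in CXCL2, 1.82-fold in CXCL3 and 1.90-fold in CCL20, while NFKBIA, at 0.947-fold, was not. In HT29-line cells control 1 was 2.61-fold above control 2 in CXCL8, 2.47-fold in CXCL3, 2.81-fold in CCL20 and 1.90-fold in CXCL1. These HT29-line levels of control 1 rest in good part on few cells. Cells with 3 or more UMIs of the gene held 64.5% of the CXCL8 UMIs (5 cells) and 33.3% of CXCL3 (2 cells). They held 63.3% of CCL20 (3 cells) and 54.3% of CXCL1 (2 cells). In control 2 these shares were 10%, 0%, 0% and 21.1%. The part of these cells in the folds was not tested. With control 2 left out and both lines in 1 fit, the log2 fold changes with LPS were -1.24 for CCL20, -1.48 for CXCL3, -1.71 for CXCL8, -0.74 for CXCL2 and -0.45 for NFKBIA. These 5 of 10 were under the threshold, beside 6.28% of all genes lower (9.16% in either direction). That fit sets 1 control insert against 1 LPS insert, and its 1 residual degree of freedom comes from the lines within them, so its p-values hold no spread between inserts and none is given. With control 1 left out, none of the 10 passed, beside 0.43% of all genes, and the same 5 had log2 fold changes of -0.20, -0.48, -0.42, -0.14 and -0.27. Control 1 was also the deepest library and had the lowest median mitochondrial share (3.62%, against 4.05% in control 2 and 4.41% in LPS 1). The part of these in the chemokine levels was not tested.

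The effect of LPS was not shown to differ between the lines for any of the 10. None passed the test of the difference itself, and none had an unadjusted p under 0.05, beside 1 gene past the threshold (0.00662%), 2 in DESeq2 (0.0132%), and 2.49% with an unadjusted p under 0.05 among all genes. The difference closest to the threshold was that of TNFAIP3 (HT29 minus Caco-2, 0.76 ± 0.51, adjusted p = 1). For CXCL8 it was -0.20 ± 2.21. With 2 CXCL8 UMIs in the Caco-2-line cells of LPS 1, the test was not shown to be able to detect a several-fold difference between the lines.

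The receptor complex for LPS was close to the limit of detection. TLR4, the receptor, had 5 UMIs among 61717558 in Caco-2-line cells and 5 among 11558608 in HT29-line cells, and LY96, its co-receptor MD-2, had 3 and 4. A count of 0 would allow up to 0.0486 and 0.26 CPM, and TLR4 was at 0.081 and 0.433 CPM. CD14, which hands LPS to the complex, was at 21.5, 10.9 and 10.8 CPM in HT29-line cells of control 1, control 2 and LPS 1 and at 2.08, 3.05 and 2.97 CPM in Caco-2-line cells (log2 fold change 2.58 ± 0.31, adjusted p = 4.75e-06). TLR2, the receptor of bacterial lipoproteins, was at 5.41, 5.59 and 5.70 CPM in Caco-2-line cells and at 0.5003, 0 and 0.291 CPM in HT29-line cells. Over all genes, 28.4% were higher in HT29 and 31.9% lower, and the counts of this and the following lists are to be read against these shares. Of the 14 tested sensors and adaptors, 4 were higher in HT29 and 2 lower, and none passed for LPS in either line. IRAK1, a kinase of the receptor complex, was among the higher (1.40 ± 0.14, adjusted p = 5.27e-07).

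Of 12 tested cytokine receptors and the signalling proteins bound to them, 5 were higher in HT29 and 2 lower. Both directions together were near the 60.2% of all genes, so the count is not particular to this list. The split between higher and lower rests on few genes and was not tested. Among the 5 higher were the adaptor TRADD and the kinase RIPK1, which are not receptors and are named after their values were seen. TNFRSF12A was at 191, 131 and 143 CPM in HT29-line cells against 49.2, 48.9 and 40.3 CPM (1.62 ± 0.17, adjusted p = 9.02e-07). TNFRSF1A, the main receptor of tumour necrosis factor, was at 53.8, 43.5 and 41.0 against 31.4, 26.9 and 29.5 CPM (0.64 ± 0.16, adjusted p = 0.00308), and the second receptor TNFRSF1B was at 4.15, 4.82 and 4.97 CPM in Caco-2-line cells and at 0, 0.243 and 0.291 CPM in HT29-line cells. Of 6 tested chemokine receptors, 2 were higher and 3 lower. CXCR4, the receptor of CXCL12, was at 17.5, 5.83 and 14.5 CPM in HT29-line cells against 0.627, 0.559 and 0.424 CPM (4.17 ± 0.49, adjusted p = 7.79e-06), and the scavenging receptors ACKR2 and ACKR3 were lower in HT29. CXCR1 and CXCR2, the receptors of CXCL8, had 1 UMI each in all kept cells, and CCR6, that of CCL20, had 71.

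Of 11 tested kinases of the IKK complex and upstream, 2 were higher and 2 lower, among them IKBKG, the regulatory subunit NEMO (1.39 ± 0.22, adjusted p = 4.32e-05), and TAB3, an adaptor of the kinase TAK1 (-1.11 ± 0.23, adjusted p = 5.07e-04). MAP3K8, a kinase that acts through ERK, was the other higher one (0.57 ± 0.16, adjusted p = 0.00464). Beside RELB, which was higher in HT29, 4 other NF-κB subunits were tested, of which RELA alone passed (41.5, 53.4 and 39.2 CPM in HT29 against 23.5, 24.9 and 26.1; 0.87 ± 0.16, adjusted p = 1.61e-04). Beside NFKBIA, which was higher, and TNFAIP3, which was lower, 10 other inhibitors and feedback genes were tested, of which 4 were higher and none lower, led by ZC3H12A, the RNase Regnase-1 (2.05 ± 0.21, adjusted p = 5.43e-07), TNIP1, a partner of A20 (1.29 ± 0.15, adjusted p = 1.86e-06), and NFKBIZ (1.27 ± 0.17, adjusted p = 1.26e-05).

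Among the outputs, 8 other target genes of 21 tested were higher in HT29 and 4 lower. Both directions together were near the 60.2% of all genes, so this count is not particular to the list either. Its split between higher and lower was not tested. LCN2, the iron-scavenging lipocalin, was at 230, 167 and 178 CPM in HT29-line cells against 2.59, 3.35 and 1.58 CPM (5.98 ± 0.22, adjusted p = 8.95e-12), and the early response gene IER3 was higher too (2.21 ± 0.17, adjusted p = 1.33e-08). Complement C3 was lower, at 2.25, 2.67 and 4.65 CPM against 66.2, 43.6 and 47.0 CPM (-4.58 ± 0.31, adjusted p = 8.83e-09). Of 8 tested other chemokines, 4 were higher and 2 lower. CXCL16, a membrane-bound chemokine, was at 21.3, 21.2 and 23.6 CPM in Caco-2-line cells against 6.003, 4.13 and 6.39 CPM in HT29-line cells (-2.17 ± 0.23, adjusted p = 6.33e-07), and CCL15 was higher in HT29 (1.54 ± 0.17, adjusted p = 1.50e-06). CXCL10, an interferon-induced chemokine that also passed (4.90 ± 1.18, adjusted p = 0.00218), rests on 17 UMIs in 4 cells of the whole series, at 3.16 CPM in HT29-line cells of control 2 and at 0.25 and 0 CPM in control 1 and LPS 1. Of 10 tested cytokines, 6 were higher and 3 lower, with IL32 (-3.05 ± 0.18, adjusted p = 1.00e-09) and IL18 (-1.65 ± 0.17, adjusted p = 3.61e-07) lower and the interleukin-1 antagonist IL1RN higher (5.08 ± 0.39, adjusted p = 1.48e-08). TNF had 4 UMIs and IL6 none in all kept cells. No gene of these lists passed for LPS in either line.

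Defining markers of cells that neither line should hold were few or absent, but some listed markers were not. The leukocyte marker PTPRC had 4 UMIs in all kept cells and MS4A1 none. The 6 leukocyte markers summed to 25.2 to 28.4 CPM over the Caco-2-line sums and 22.5 to 28.2 CPM over the HT29-line sums, most of it CD68 (1693 UMIs). The 5 fibroblast markers summed to 15.4 to 19.5 and 24.5 to 32.8 CPM, with 1 DCN UMI in all, and the 3 endothelial markers to 2.35 to 2.84 and 0 to 0.243 CPM, with 1 CDH5 UMI. Of the markers tested, CD3E, CSF1R, COL1A1, PDGFRB and PECAM1 were lower in HT29-line cells and LUM was higher. LUM was at 20.8, 28.6 and 27.3 CPM in HT29-line cells, above the CXCL8 level in each library, and at 5.17, 6.04 and 5.34 CPM in Caco-2-line cells. COL1A1 was at 8.46, 10.9 and 11.6 CPM in Caco-2-line cells and at 3.75, 3.88 and 5.52 CPM in HT29-line cells. The part of these markers in the results was not tested.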

How the data were processed

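Single-cell RNA of 2 control co-cultures and 1 LPS co-culture was counted by the authors with Cell Ranger against GRCh38, and they deposited UMI counts per gene and barcode with no normalization (the matrix headers name software version 3.1.0, another version than the study's methods). The 10 genes and the gene lists were chosen with earlier results of these data known. Cells were kept at the UMI and gene minimums of the study's methods (those of control 2 for LPS) and at most 20% mitochondrial UMIs. The doublet caller marked 0, 0 and 1 cells, so the 6% with the highest scores were removed per library, which left 4633, 4989 and 4850 cells. Lines came from 374 HT29 and 701 Caco-2 genes, a Gaussian mixture per library and a posterior of 0.95 (258 cells had none). No column of counts was identical between libraries, and 4 to 6 kept barcodes were shared by each pair. Clusters used Seurat 5.3.0 integration on 3000 features without the genes described, 50 components, 15 neighbours and Leiden resolution 0.5 (leidenalg 0.10.2).

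Counts were summed per line and library (6 sums) and tested with edgeR 4.0.16. The settings were quasi-likelihood, TMM scaling, a filter on low counts, 2 residual degrees of freedom, Benjamini-Hochberg over 15114 genes and a threshold of 0.05. The test was checked on simulated data. There, 11.8% of the calls between the lines were false, above the threshold. Of 14535 genes tested in it, 95 were changed 2-fold and 99 4-fold, while 60.2% of genes passed between the lines in the data. All simulated sums were drawn from 1 profile pooled over both lines. So the shares of the simulation need not hold in the data. Many 2-fold changes were missed, above all for LPS in HT29-line cells. DESeq2 1.42.0 was an alternative. Both lines of a library come from 1 insert, so the library pairs the sums; the fit with it as a block is an alternative. Named genes are the 10 themselves, up to 3 per list with the smallest adjusted p, TLR4, LY96 and CD14, and the 3 most alike per gene. Intervals cover 95% and counting error only. The SE of an edgeR log2 fold change is its size divided by the square root of the F value of the test. It is approximate, above all at low counts. The alternatives changed scaling, filters, doublets, depth, line assignment, clustering and the controls used.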

Additional observations from a re-analysis of the deposited data

How the results depend on the processing

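Of the 10 genes, 8 passed between the lines, and 7 to 9 did under the alternatives. These were 7 with no doublets removed and 8 with the library as a replicate block in the controls. With the library as a replicate block over all 3 libraries, which was chosen after seeing the data, 9 passed. With either control left out 9 passed too, but that fit takes in LPS 1 beside the other control. It has 1 residual degree of freedom and is not a comparison within controls alone. The block in the controls changed no other call. For LPS in Caco-2-line cells, for LPS in HT29-line cells and for the difference between the lines, 0 of the 10 passed under each alternative that gives a test on each line; the exception is the fit of both lines together without control 2, in which 5 passed with no spread between inserts in the test. Over all genes, LPS called 0 in Caco-2-line cells and 27 without a filter on low counts, 2 with each line fitted alone and 7 with all cells of a library summed. It called 8 in HT29-line cells and 35 without the filter, 26 with each line fitted alone, 13 with lines taken from clusters and 4 in thinned cells. The difference between the lines called 1 gene and 28 with the replicate block, 8 without the filter, 3 at the minimums of control 1, 2 in DESeq2, in thinned cells or at 10% mitochondrial UMIs, and 0 with RLE factors, no doublets removed or lines from clusters.

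Signs turned for genes that had not passed, with log2 fold changes near 0 or few UMIs, and the cause was not tested. In thinned cells these were CXCL3 between the lines (-0.093), CXCL1 for LPS in Caco-2-line cells (0.026), CCL20 (0.36) and BIRC3 (-0.10) for LPS in HT29-line cells, and CXCL8 (2.81) and BIRC3 (-0.42) in the difference between the lines. With at most 10% mitochondrial UMIs, BIRC3 for LPS in Caco-2-line cells was -0.15. At the minimums of control 1, ICAM1 for LPS in HT29-line cells was -0.29. In the difference between the lines, CXCL8 was 0.51 with no doublets removed and CXCL3 0.053 with lines from clusters.

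The HT29 share of cells with a line was 14.2%, 20.1% and 17.8% in control 1, control 2 and LPS 1. It was 17.6%, 26.0% and 19.9% with lines from clusters, and 18.9% and 16.5% in the latter pair at the minimums of control 1. The share of cells with a UMI of any of the 10 genes in the controls was 18.8% in Caco-2-line and 19.8% in HT29-line cells when thinned and 39.4% and 38.1% unthinned. LPS had 1 library, with 20 or fewer CXCL8, CXCL1, CXCL3 or CCL20 UMIs in its HT29-line cells. So small effects of LPS cannot be seen at this depth, and large ones can be missed. In simulated data over all genes, 24% of 2-fold and 69% of 4-fold LPS changes were recovered in HT29-line cells. In Caco-2-line cells these shares were 50% and 86.9%. The simulated counts came from 1 profile pooled over both lines, so the shares need not hold at the levels of each line.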

Other observations

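The 258 cells without a line belong to no comparison between lines or with LPS above. They held CXCL8 at 2.80 CPM (4 UMIs, interval 0.763 to 7.17), between the levels of the lines, with CXCL2 at 13.3 CPM (8.00 to 20.8), NFKBIA at 42.7 (32.7 to 54.8) and ICAM1 at 11.9 (6.93 to 19.05). Cluster 9, of 306 cells led by SPRR1B and SLPI, held 55 cells without a line, 248 Caco-2-line cells that are part of the sums above, and had 40 cells in LPS 1. It held NFKBIA at 38.8 CPM (31.5 to 47.2), CXCL2 at 17.0 (12.3 to 22.9), RELB at 10.7 (7.04 to 15.5) and ICAM1 at 9.89 (6.40 to 14.6), and its median depth was 6919 UMIs.

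Cluster 12, of 79 Caco-2-line cells led by STC1 and DEFB1, held NFKBIA at 76.9 CPM (29 UMIs, interval 51.5 to 110), above the mean of each of the 10 clusters described. ICAM1 there was at 21.2 CPM (8 UMIs, 9.16 to 41.8) and CXCL2 at 37.1 CPM (14 UMIs, 20.3 to 62.3). Cluster 11, of 181 cells with the enteroendocrine genes INSM1 and PAX4 among its leading genes, held no UMI of CXCL1, CXCL3, CXCL8 or CCL20 among 583864, and NFKBIA was at 25.7 CPM (15 UMIs, 14.4 to 42.4). Cluster 13, of 71 cells led by FABP7 and PAGE4, held TNFAIP3 at 17.7 CPM (9 UMIs, 8.10 to 33.6). Apart from those without a line, the cells of these clusters are part of the sums above. The clusters were singled out after their values had been seen, and each has under 50 cells in at least 1 library.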
